A study of Mus musculus with 6 samples.

Results

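The genes described here encode the pore-forming subunits of sodium channels (symbols Scn with a number and the letter a), those of calcium channels (Cacna1) and every potassium channel gene of the Kcn series. They were chosen by symbol alone, with no measured value, and numbered 111 of the 19378 genes measured in at least 1 of 6 mouse tissue sections. By symbol they fell into 39 pore-forming subunits of voltage-gated potassium channels, 8 potassium channels opened by calcium or sodium (Kcnma, Kcnn, Kcnt, Kcnu), 15 inward rectifiers (Kcnj), 13 2-pore channels (Kcnk), 16 auxiliary and other Kcn genes, 10 sodium channels and 10 calcium channels. The symbol rule is wider than voltage gating: inward rectifiers, 2-pore channels and small-conductance calcium-opened channels (Kcnn) have no voltage sensor of the kind that opens a sodium channel, and the auxiliary genes encode no pore.

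Voltage-gated channels open when the membrane potential changes. Sodium channels carry the rising phase of the action potential, calcium channels couple the change in voltage to transmitter release, contraction and transcription, and potassium channels bring the membrane back to rest. Inward rectifiers and 2-pore channels set the resting potential. Different members are used by brain neurons, sensory neurons, heart, skeletal muscle and glia, and many neuronal ones are targets of the repressor REST outside the nervous system. H3K4me3 is a histone mark of promoters, H3K27ac of active promoters and enhancers, and H3K27me3 of genes under Polycomb repression.

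Each mark was read by position, with an antibody that brings the transposase Tn5 to marked chromatin on an array of barcoded spots. The adult brain of a wild-type mouse was profiled for H3K4me3 (20 µm cryosection). Whole wild-type embryos at E11.5 were profiled in 3 cryosections of 16 µm, 1 each for H3K4me3, H3K27ac and H3K27me3. Adult paws were profiled for H3K27ac in 4 µm sections of decalcified, paraffin-embedded tissue, 1 from a mouse with collagen-induced arthritis at 42 days and 1 control, also labelled 42 days. Every group had 1 section, so there was no spread between animals and no test between groups, and all values describe these sections.

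The sections held 403483 (embryo H3K4me3) to 5981684 (control paw) recovered reads over 248 to 1200 spots, and the median channel gene held 160 reads in the brain, 11, 20 and 19 under embryo H3K4me3, H3K27ac and H3K27me3, 182 in the control paw and 393 in the arthritis paw. Of the 111 channel genes, 81 were analysed in the brain, 109 under embryo H3K4me3, 111 under each of the other embryo marks and in the control paw, and 77 in the arthritis paw; 68 were analysed in all 6 sections. Those not analysed in the brain include the neuronal genes Scn1a, Scn2a, Kcnq5 and Cacna1b. Genes analysed in the brain held a median of 206 reads in the control paw, and the other genes 77, so the brain and the arthritis paw cover mainly genes of higher signal. The tissue labels were checked against marker genes. For brain over embryo H3K4me3, the log2 ratio beside the median of all genes had a median of 0.17 over 10 neuron markers, with 1 of them 2-fold higher and 0 lower, 0.17 over 5 oligodendrocyte markers, -0.13 over 3 microglia markers and -0.22 over 4 astrocyte markers, so these markers did not set the brain apart. For the arthritis over the control paw it was 0.67 over 4 keratinocyte markers, 0.34 over 6 skeletal muscle markers and -0.30 over 9 neuron markers, with 1 of these 9 2-fold higher and 0 lower. Over 2 immune cell markers it was -0.50, with 0 higher and 1 lower at -1.21, so these markers were not raised in the section labelled as arthritis. The part of these marker differences in the channel results was not tested. All pairs of sections shared spot names, from 35 to 324, which are positions on the array.

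H3K4me3 is a promoter mark, so the promoters of the channel genes at both ends of the brain H3K4me3 ranking are shown. Each window runs from 250 bases before to 50 bases after the start of the gene, from RefSeq on GRCm38.p6, written 5′ to 3′ on the strand of the gene with each CpG in capitals. Kcnn3, a small-conductance calcium-opened channel, Kcnj3 and Kcnj6, which form G-protein-gated inward rectifiers, ranked highest among the members with a window. Kcnip4, an auxiliary subunit of A-type channels, Kcnrg, a regulator of channel assembly, and Kcnk13, a 2-pore channel, ranked lowest.
Kcnn3 promoter, chr3:89519914-89520213, plus strand: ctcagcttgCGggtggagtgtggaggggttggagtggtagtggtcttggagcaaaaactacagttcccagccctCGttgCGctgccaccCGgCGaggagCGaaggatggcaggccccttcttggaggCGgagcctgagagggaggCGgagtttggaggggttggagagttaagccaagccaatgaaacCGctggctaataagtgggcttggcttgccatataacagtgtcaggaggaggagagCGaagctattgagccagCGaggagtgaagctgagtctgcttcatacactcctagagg
Kcnj3 promoter, chr2:55435720-55436019, plus strand: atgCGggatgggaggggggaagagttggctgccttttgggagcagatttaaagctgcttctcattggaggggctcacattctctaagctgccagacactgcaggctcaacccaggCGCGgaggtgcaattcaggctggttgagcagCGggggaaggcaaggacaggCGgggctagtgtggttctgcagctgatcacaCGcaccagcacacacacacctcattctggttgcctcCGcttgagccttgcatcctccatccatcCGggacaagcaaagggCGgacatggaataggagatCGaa
Kcnj6 promoter, chr16:94997647-94997946, minus strand: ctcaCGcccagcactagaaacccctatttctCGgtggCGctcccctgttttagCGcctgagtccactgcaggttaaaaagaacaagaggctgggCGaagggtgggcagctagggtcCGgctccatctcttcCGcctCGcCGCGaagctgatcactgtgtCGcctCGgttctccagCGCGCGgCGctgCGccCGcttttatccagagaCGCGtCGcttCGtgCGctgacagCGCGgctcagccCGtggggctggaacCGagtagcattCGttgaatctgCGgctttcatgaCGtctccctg
Kcnip4 promoter, chr5:49285610-49285909, minus strand: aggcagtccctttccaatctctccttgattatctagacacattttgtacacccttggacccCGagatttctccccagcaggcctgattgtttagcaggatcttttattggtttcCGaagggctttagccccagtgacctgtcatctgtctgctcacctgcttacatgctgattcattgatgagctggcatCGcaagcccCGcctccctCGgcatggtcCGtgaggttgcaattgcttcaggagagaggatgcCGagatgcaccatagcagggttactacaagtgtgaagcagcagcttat
Kcnrg promoter, chr14:61607207-61607506, plus strand: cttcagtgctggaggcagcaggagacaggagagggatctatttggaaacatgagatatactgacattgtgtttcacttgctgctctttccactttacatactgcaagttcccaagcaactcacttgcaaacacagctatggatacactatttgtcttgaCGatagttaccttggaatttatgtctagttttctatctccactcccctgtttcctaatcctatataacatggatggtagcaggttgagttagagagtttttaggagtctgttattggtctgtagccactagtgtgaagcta
Kcnk13 promoter, chr12:99964249-99964548, plus strand: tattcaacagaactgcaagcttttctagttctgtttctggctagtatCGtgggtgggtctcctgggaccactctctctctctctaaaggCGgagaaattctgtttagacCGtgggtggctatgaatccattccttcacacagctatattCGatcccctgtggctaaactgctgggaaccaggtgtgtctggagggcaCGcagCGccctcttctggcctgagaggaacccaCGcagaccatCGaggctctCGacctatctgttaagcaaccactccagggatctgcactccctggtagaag

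The window of Kcnj6 held 30 CpGs, that of Kcnn3 11 and that of Kcnj3 10, against 7 for Kcnip4, 1 for Kcnrg and 9 for Kcnk13. A high brain rank therefore went with both a CpG-rich window and windows hardly richer than those at the low end. A window was found for 82 of the 111 members, 58 of them analysed in the brain, where the median member window held 14 CpGs and the median window of all genes 18. Across the 58 members, Spearman's rho between CpG count and brain rank was 0.35, and across 8886 genes of the brain it was 0.17. This is a description across genes, which are not independent replicates and share 1 library. The motif TTCAGCACC, part of the site that REST reads, was searched on both strands and found in 1 member window, that of Kcnh6, which is 1.22% against 0.433% of the 27025 windows of all genes. GGGCGG, the core read by Sp1, was found in 48 member windows (58.5% against 38.2%) and TATAAA in 7 (8.54% against 15.7%). The 27025 windows include genes that no section measured. In the control paw, which held the most genes, 15337 had a window, so these motif shares are set against an unlike set of genes.

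The level of a gene is given as its percentile rank by reads among all genes of its section, where 50 is the middle. The brain and the arthritis paw rank fewer genes, mainly those of higher signal, so a gene of equal level ranks lower there than in the other sections, and ranks across sections are read with that limit. By reads, channel genes ranked above the middle in all 6 sections. Their median rank was 65.2 in the brain and 62.9 under embryo H3K4me3, 66.7 under embryo H3K27ac, 58.9 under embryo H3K27me3, 59.6 in the control paw and 65.9 in the arthritis paw. Channel genes are long: the members analysed in the brain spanned a median of 46.7 kb, and all genes there 21.9 kb. By reads per kb of gene span their median ranks were 37.7, 43.2, 42.5, 40.3, 42.5 and 46.0 in the same order, below the middle in every section. The stretch of each gene in which reads were counted is not given in the sources used here, so neither scale can be preferred. Reads followed gene span only weakly. Spearman's rho between span and reads was -0.04 to 0.15 across members and 0.14 to 0.19 across all genes of a section. Where reads follow span weakly, dividing by span lowers the rank of long genes, and the per-kb ranks are read with that limit. In the brain, 12 of 81 members ranked 90 or above (background 9.99%) and 4 ranked 10 or below (10.2%). Under embryo H3K4me3 these were 18 and 6 of 109 (10.1% and 10.8%). Together the members held 0.829% of the brain's reads and made up 0.714% of its genes. In the embryo H3K4me3 section they held 0.579% of reads and made up 0.603% of genes.

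**Figure D1:**
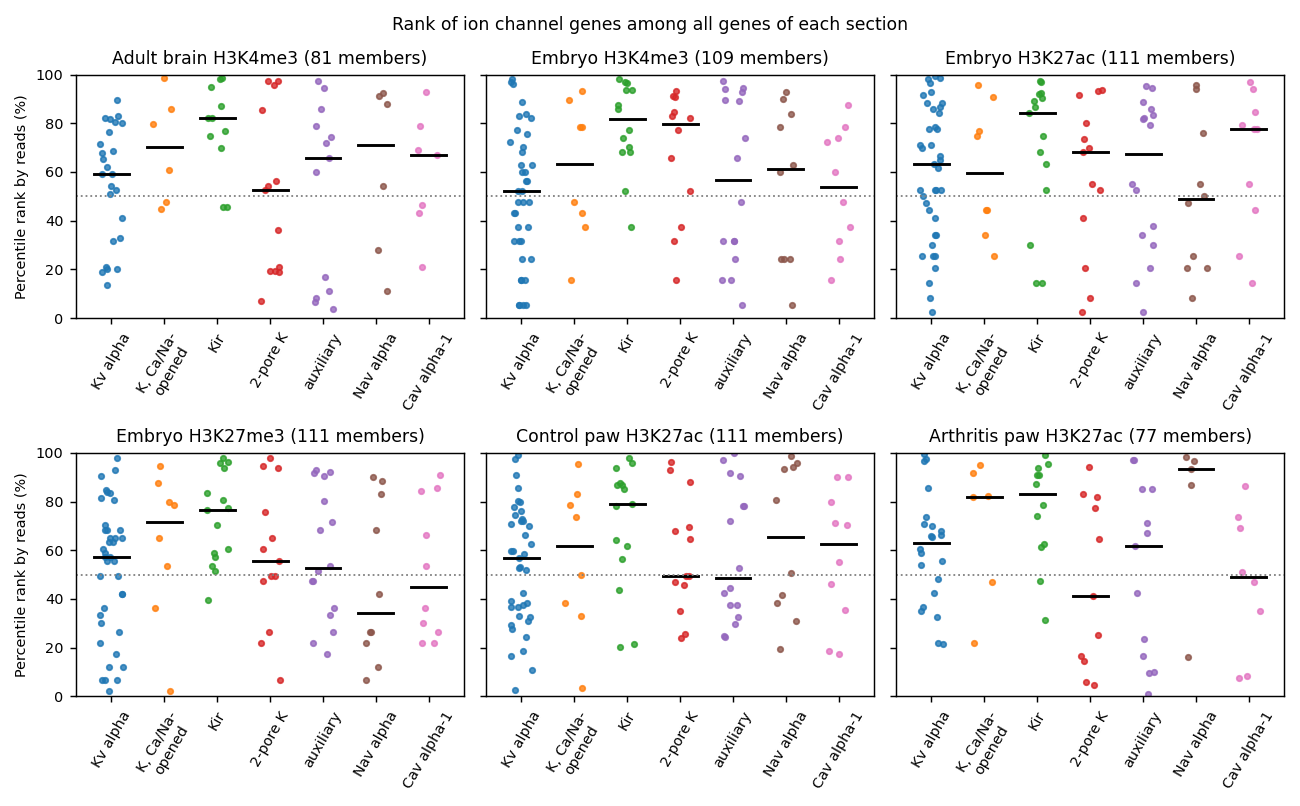
Percentile rank by reads (y axis, %) of each channel gene among all genes of its section, by family (x axis); 1 point is 1 gene, the bar is the family's median and the dotted line is the middle of all genes. Inward rectifiers (Kir) have medians of 76.6 to 84.1, and every family spreads over more than 40 percentage points in each section.

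Inward rectifiers had the highest median rank of the 7 families by reads in the brain (82.2), under embryo H3K4me3 (81.6), H3K27ac (84.1) and H3K27me3 (76.6) and in the control paw (79.0), and stood at 83.1 in the arthritis paw, where 5 sodium channels had 93.3. Per kb of gene span their medians were above the middle in 5 sections, from 56.9 under embryo H3K27ac to 68.9 in the arthritis paw, and below it in the control paw, at 47.3. Kcnj6 held 763 reads in the brain, 89, 133 and 159 under embryo H3K4me3, H3K27ac and H3K27me3, 1764 in the control paw and 1503 in the arthritis paw, and ranked between 95.3 and 98.3 in all of them. Kcnj3 held 52 reads under embryo H3K4me3 (rank 93.7) and 149 under embryo H3K27ac (97.3). Its 891 reads in the brain (98.7) and 3531 in the arthritis paw (99.0) are lower bounds. Per kb of gene span, Kcnj6 ranked 32.9 in the brain, 48.3 under embryo H3K4me3 and 46.9 under H3K27ac, below the middle. Kcnj3 ranked 45.5, 43.2 and 56.9 per kb in the same order. The low end of the family in the brain held Kcnj1 and Kcnj9, another G-protein-gated subunit, with 110 reads each (45.4). In the control paw it held Kcnj2, with 64 reads (20.2), and Kcnj13, with 67 (21.7).

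Among sodium channels, Scn8a and Scn3a ranked high in all 6 sections, and the others were lower or moved between sections. Scn8a, a main channel of brain axons, held 372 reads in the brain (rank 92.5) and 47 under embryo H3K4me3 (92.9), and ranked 95.6 under embryo H3K27ac and 96.8 in the arthritis paw. Scn3a, a channel of developing neurons, ranked 75.8 to 98.4. Scn4a, of skeletal muscle, held 130 reads in the brain (54.4) and 3, 4 and 11 under embryo H3K4me3, H3K27ac and H3K27me3, with 87 in the control paw (31.0). Scn1a and Scn7a had at most 6 reads under any embryo mark and ranked 38.2 and 19.3 in the control paw. Scn2a ranked 59.9 under embryo H3K4me3 with 10 reads, 47.3 under H3K27ac, 12.1 under H3K27me3 and 50.5 in the control paw. Per kb, Scn8a ranked 24.4 in the brain, below the middle.

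The sodium channels of sensory neurons differed more between sections. Scn10a, which carries much of the current of pain-sensing neurons, held 2545 reads in the control paw (rank 98.8), against 14 under embryo H3K27ac (55.2), 19 under H3K4me3 (78.6) and 26 under H3K27me3 (68.4). It was not analysed in the brain or the arthritis paw. Scn9a, also of sensory neurons, ranked 80.5 in the control paw with 340 reads, 16.1 in the arthritis paw with 129 and 11.2 in the brain with 52. Scn11a ran the other way in the paws, at 41.7 in the control paw with 115 reads and 86.8 in the arthritis paw with 799.

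Among calcium channels, the L-type genes Cacna1d and Cacna1c and the T-type gene Cacna1i were the steadiest. Cacna1d held 377 reads in the brain (rank 92.7) and ranked 77.7 to 92.7 over the 6 sections, Cacna1c 68.9 to 89.9 and Cacna1i 69.3 to 90.8. The T-type gene Cacna1g ranged from 46.3 in the brain to 84.6 under embryo H3K27ac. Cacna1a and Cacna1e, of presynaptic terminals, ranked 43.0 and 20.9 in the brain with 105 and 67 reads, and Cacna1b, of the same class, ranked 7.4 to 30.0 in the 5 sections in which it was analysed. Cacna1h ranked 67.0 in the brain and 14.4 under embryo H3K27ac. Cacna1s and Cacna1f, the L-type channels of skeletal muscle and of the retina, were high under embryo H3K27ac, with 130 and 80 reads (96.8 and 94.1), against 7 and 5 under H3K4me3 and 6 and 5 under H3K27me3. Per kb of gene span, Cacna1a, Cacna1c and Cacna1e ranked 3.0, 2.3 and 0.7 in the brain, so the place of these long genes rests on the scale.

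Voltage-gated potassium channel subunits had a median rank of 59.4 in the brain and 52.3 under embryo H3K4me3, and 0 of 25 ranked 90 or above in the brain. The highest there was Kcng1, a silent subunit that modifies delayed rectifiers, with 322 reads (89.7). Kcng2, a relative, was not analysed in the brain and ranked 95.9 to 98.1 in the other 5 sections. 2-pore channels had medians of 52.8 in the brain and 79.6 under embryo H3K4me3. Kcnk3, an acid-sensitive background channel, held 600 reads in the brain (97.4) and ranked 93.0 to 97.4 throughout, whereas Kcnk1 held 67 reads (20.9) and ranked 5.8 to 26.3. Of the channels opened by calcium or sodium, Kcnn3 held 915 reads in the brain (98.7) and ranked 91.8 to 98.7, and Kcnn1 ranked 76.8 to 83.2. Among auxiliary subunits, Kcnip2, which partners A-type channels in the heart and brain, held 598 reads in the brain (97.4), and Kcnip4 38 (3.8).

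The comparison of brain with embryo H3K4me3 asked which channel genes differ at promoters between the adult brain and the whole embryo. Reads of each gene were scaled to the average gene shared by the pair, 0.1 was added, and the log2 ratio was set against the median ratio of all genes. A gene was counted as higher or lower when it lay 2-fold or more from that median. Of the 80 channel genes held by both, 5 were higher in the brain (background 7.23%), 9 were lower (background 11.7%), and the other 66 were within 2-fold. Their median ratio was 0.13, with 43 above the median of all genes. In the odd and in the even array columns taken separately, 1 was higher in both (3.87%) and 7 were lower in both (9.17%). These shares lie near those of all genes.

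The genes higher in the brain held few embryo reads. Kcnk4, a mechanosensitive 2-pore channel, held 585 reads in the brain and 25 in the embryo, a log2 ratio of 1.06 (95% counting interval of the ratio without the added 0.1: 0.44 to 1.65). Kcng1 held 322 and 11, at 1.25 (0.48 to 2.35), and Kcnq3, a subunit of the neuronal M-current, 229 and 8, at 1.14 (0.30 to 2.53). Scn4a held 130 and 3, at 1.30 (0.32 to 4.20), and Kcna4, an A-type channel, 84 and 1, at 1.38 (0.34 to 8.18). All 5 lay above 0 in both sets of columns, from 0.71 to 2.18. With the deposited values in place of recovered reads Kcng1 turned to -0.76. Part of the reads of Kcnk4 may be shared with its neighbour Catsperz, whose reads followed it over the spots of the brain (r = 0.77). Just under 2-fold were Kcnh1, a channel of the ether-à-go-go type, at 1.00, Kcnc1, a fast delayed rectifier, at 0.88, Cacna1a at 0.81, Kcnn3 at 0.79 and Kcnk1 at 0.78.

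Most of the genes lower in the brain differed more and rested on more embryo reads, with Scn9a the exception in both and Kcnk16 in reads. Kcnmb2, an auxiliary subunit of the large-conductance channel, held 162 reads in the brain and 118 in the embryo, although the brain section held more reads in all, a log2 ratio of -2.80 (-3.43 to -2.72). Kcnj5, a G-protein-gated rectifier of the heart atrium, held 241 and 168, at -2.78 (-3.31 to -2.72). Kcnj8, a pore subunit of ATP-sensitive channels in vessels and heart, held 241 and 104, at -2.10 (-2.66 to -1.98). These 3 genes had embryo ranks of 97.0 to 98.3 and brain ranks of 65.7 to 82.2, and their ratios in odd and even columns stayed between -3.27 and -2.04. Kcnk16 (-1.70, 23 embryo reads), Kcne1 (-1.60, 56 reads), Kcnk10 (-1.50, 39 reads) and Kcnip3 (-1.47, 60 reads) were also lower. Scn9a was lower at -1.03 (-2.25 to -0.21) on 11 embryo reads, and its ratio was -0.21 in the odd columns. Kcnk7 at -0.88 was within 2-fold.

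By tissue of known use, 22 neuronal members had a median ratio of 0.00, with 2 higher and 1 lower, and 7 heart members -0.15, with 0 higher and 3 lower, beside 7.23% higher and 11.7% lower over all genes. Calcium channels had 0 of 7 past 2-fold, with ratios from -0.50 (Cacna1g) to 0.81 (Cacna1a) and Cacna1d at 0.21, Cacna1i at 0.06 and Cacna1c at -0.03. Of 6 sodium channels, Scn4a was higher and Scn9a lower, and Scn11a lay at 0.68, Scn3a at 0.19 and Scn8a at -0.41. Counting error is wide here: for 56 of the 80 members the counting interval included 0.

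**Figure D2:**
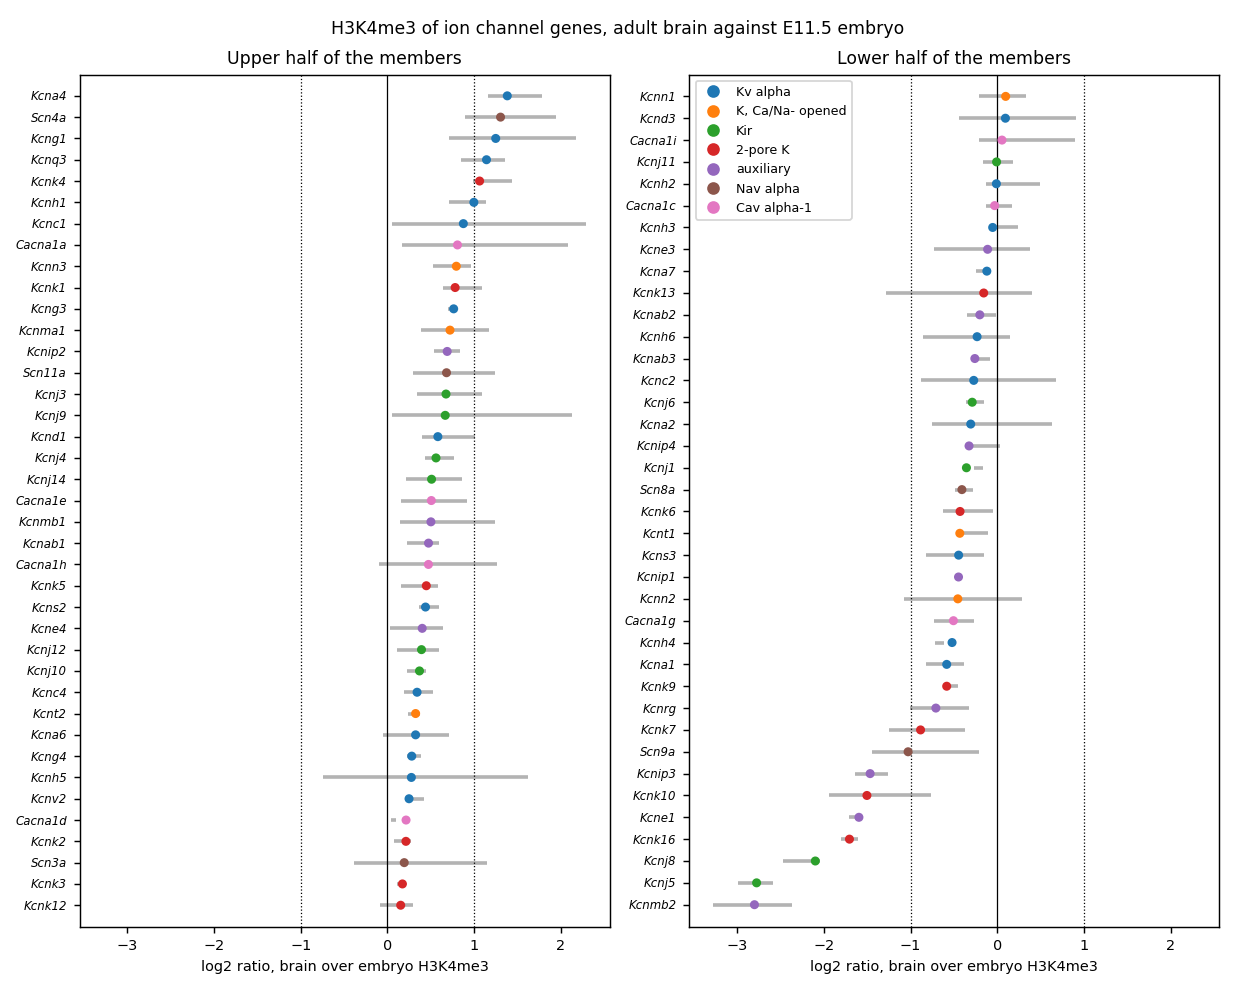
log2 ratio of H3K4me3, brain over embryo (x axis; 0 is the median of all genes, dotted lines mark 2-fold), for 77 of the 80 channel genes in order of ratio (y axis, 2 panels), coloured by family. Points are all columns, and grey bars join the ratios of odd and even array columns of these 2 sections; Kcnmb2, Kcnj5 and Kcnj8 lie apart from the rest at -2.80 to -2.10.

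In the embryo, the 3 marks were compared to see which channel genes carry a mark out of proportion to the others. Against H3K4me3, 8 of 109 members were 2-fold higher in H3K27me3 (background 13.3%) and 19 lower (background 11.1%), with a median ratio of -0.05. Against H3K27ac, 9 of 111 were higher in H3K27me3 (background 12.3%) and 19 lower (background 11.6%), with a median of -0.07. Between H3K27ac and H3K4me3, 13 of 109 were higher in H3K27ac (background 12.9%) and 10 lower (background 12.3%), with a median of 0.13. The 3 comparisons share their sections, so they are not independent. In both column sets, 7 and 12 members were higher and lower for H3K27me3 against H3K4me3 (8.57% and 8.26% of all genes), 7 and 15 for H3K27me3 against H3K27ac (8.79% and 8.00%) and 10 and 6 for H3K27ac against H3K4me3 (8.54% and 7.96%).

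H3K27me3 was high on Kcnmb4, a neuronal auxiliary subunit of the large-conductance channel, with 75 reads against 2 under H3K4me3 and 6 under H3K27ac, at log2 ratios of 3.26 (2.33 to 7.30) and 2.81 (2.17 to 4.85). Kcnj15, an inward rectifier, held 257 reads against 30 and 55, at 2.06 and 1.84. Kcnk2, a mechanosensitive 2-pore channel, held 254 against 38 and 62, at 1.72 and 1.66. These 3 genes were high in H3K27me3 against either mark. Kcnc1 held 48 against 5 for H3K4me3, at 1.89, Kcnj11, the pore of the ATP-sensitive channel of muscle and beta cells, 105 against 21 for H3K27ac, at 1.85, and Kcna5 26 against 5, at 1.58.

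H3K4me3 was high on other genes. Kcns1, a silent subunit of sensory neurons, held 161 H3K4me3 reads against 29 H3K27ac and 26 H3K27me3 reads, at log2 ratios of -2.98 and -3.39 for those marks over H3K4me3. Kcnj5 held 168 against 51 and 35, at -2.28 and -3.08, and Kcnmb2 118 against 37 and 41, at -2.22 and -2.37. Kcnj8 held 104 H3K4me3 and 36 H3K27me3 reads, at -2.36. Kcnj16, of glia and kidney, held 52 H3K4me3 and 26 H3K27ac reads, at -1.53, and Kcnip3, a calcium sensor that also binds DNA, 60 and 35, at -1.34. The H3K4me3 levels of Kcnj5, Kcnmb2 and Kcnj8 are the same values that enter the brain comparison.

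H3K27ac was high on yet other genes. Cacna1s held 130 reads against 7 for H3K4me3 and 6 for H3K27me3, at 3.22 over H3K4me3 and -4.07 for H3K27me3 over H3K27ac. Cacna1f held 80 against 5 and 5, at 2.89 and -3.54, and its reads followed those of its neighbour Ccdc22 over the spots of embryo H3K4me3 and H3K27me3 (r = 0.77 and 0.94). Kcnh2, the rapid delayed rectifier of the heart, held 218 against 23 and 42, at 2.50 and -2.60. Kcnv2, a silent subunit of photoreceptors, held 124 H3K27ac and 22 H3K27me3 reads, at -2.62, and Kcnd2, an A-type channel of dendrites, 43 H3K27ac and 3 H3K4me3 reads, at 2.50 (1.46 to 5.44). The remaining sodium and calcium channels past 2-fold rested on 3 to 14 reads in each section: Cacna1e and Cacna1h between H3K27ac and H3K4me3 (1.07 and -1.65), Cacna1e and Scn2a between H3K27me3 and H3K27ac (-1.25 and -1.33), and Scn2a and Scn9a between H3K27me3 and H3K4me3 (-1.73 and -1.34).

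**Figure D3:**
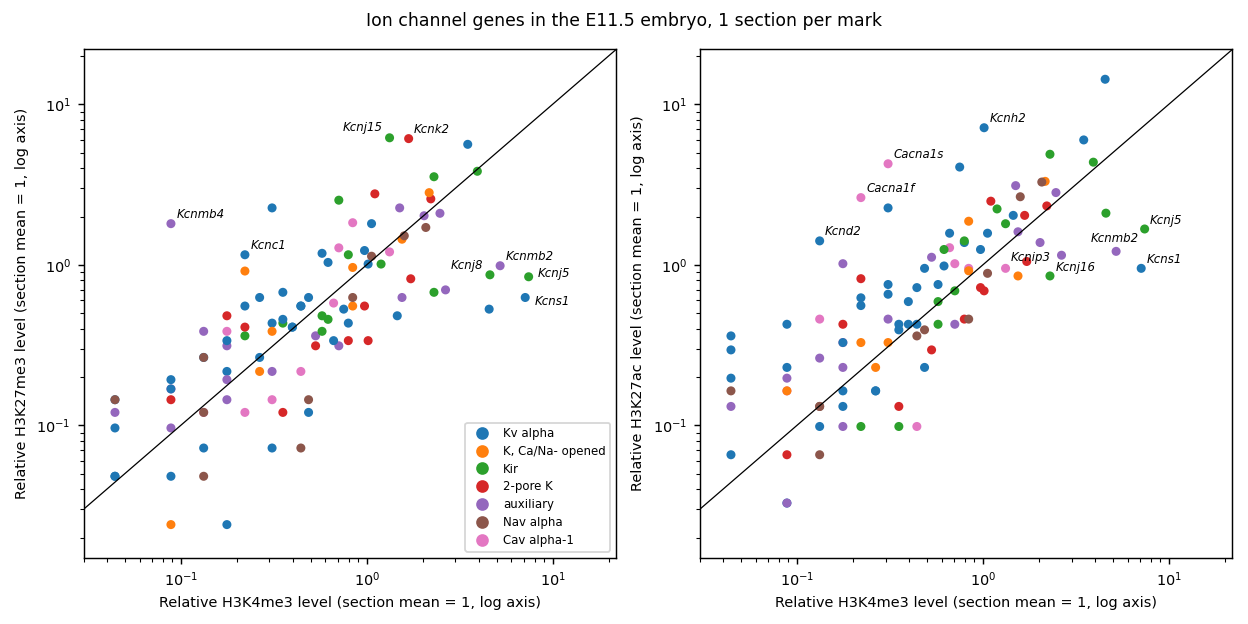
Level of H3K27me3 (left) and H3K27ac (right) against H3K4me3 in the embryo, as reads over the mean of all genes compared (both axes logarithmic), 109 channel genes coloured by family, with the line of equal levels. Genes described in the text for these ratios are named, from Kcnmb4 at 3.26 to Kcns1 at -3.39 on the left and from Cacna1s at 3.22 to Kcns1 at -2.98 on the right.

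Many members ranked high by reads under every embryo mark at once. A rank of 75 or above under all 3 marks was reached by 26 of 109 members (23.9%, background 13.9%), and of 90 or above by 7 (6.42%, background 3.53%): Kcne1, Kcng2, Kcnj3, Kcnj6, Kcnk2, Kcnk3 and Kcnn3. A rank of 25 or below under all 3 was held by 7 (background 9.01%): Kcnd1, Kcne2, Kcnmb1, Kcnq1, Kcnv1, Scn1a and Scn11a. These joint counts were made by reads alone. Per kb of gene span under embryo H3K4me3, Kcne1, Kcng2 and Kcnk3 ranked 91.7, 74.1 and 77.2. Kcnj3, Kcnj6, Kcnk2 and Kcnn3 ranked 43.2, 48.3, 35.0 and 46.4 on that scale, below the middle, so their place rests on the scale. Sections under different marks came from different libraries, and a joint rank does not place the marks in the same cells.

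The paws were compared to see which channel genes differ in H3K27ac with arthritis. Of 77 members, 10 were 2-fold higher in the arthritis paw (background 9.84%) and 7 lower (background 9.04%), with a median ratio of 0.07. In both column sets 9 were higher (8.60%) and 5 lower (7.49%). Kcns2, a silent subunit of delayed rectifiers, held 5744 reads in the arthritis paw, itself a lower bound, and 292 in the control paw, a log2 ratio of at least 3.77. Its reads lay in 96.9% of the arthritis spots. Kcnt2, a sodium-opened channel, held 1446 and 92, at 3.14 (3.29 to 3.91 without the added 0.1), Kcnj2, the classical inward rectifier of muscle and heart, 1023 and 64, at 3.0 (3.25 to 4.01), and Kcnh4 2109 and 257, at 2.50 (2.47 to 2.85). The reads of Kcnh4 followed those of its neighbour Hcrt over the spots of the control paw (r = 0.73). Scn11a, at 2.09 (2.13 to 2.71), and Scn3a, with 2782 and 758 reads at 1.47, were the sodium channels above 2-fold.

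The largest value of any channel gene in any section was that of Kcnip3 in the control paw, with at least 16832 reads in 99.5% of the spots and 0.428% of them in the richest spot. It held 2020 in the arthritis paw, a log2 ratio of -3.38 or lower, since the control sum is a lower bound. Kcns3, a silent subunit, held 345 reads in the arthritis paw and 3016 in the control paw, at -3.31 (-3.67 to -3.35), Kcnmb2 355 and 1383, at -2.18, Scn9a 129 and 340, at -1.46, and Kcnk4 627 and 1168, at -1.20. Scn10a, with 2545 reads in the control paw, was not analysed in the arthritis paw, so it could not be compared. The 5 sensory neuron members held by both paws were Scn9a, Scn11a, Kcng4, Kcns3 and Kcnk18. Of these, 2 were lower (background 9.04%) and 1 higher (background 9.84%), with a median of -0.89. The median of the neuron markers in this comparison was -0.30, as given above. Calcium channels were within 2-fold in 8 of 8 cases, from -0.53 (Cacna1c) to 0.17 (Cacna1b), as was Scn8a at 0.46. Over all genes, 18.9% were past 2-fold in either direction.

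**Figure D4:**
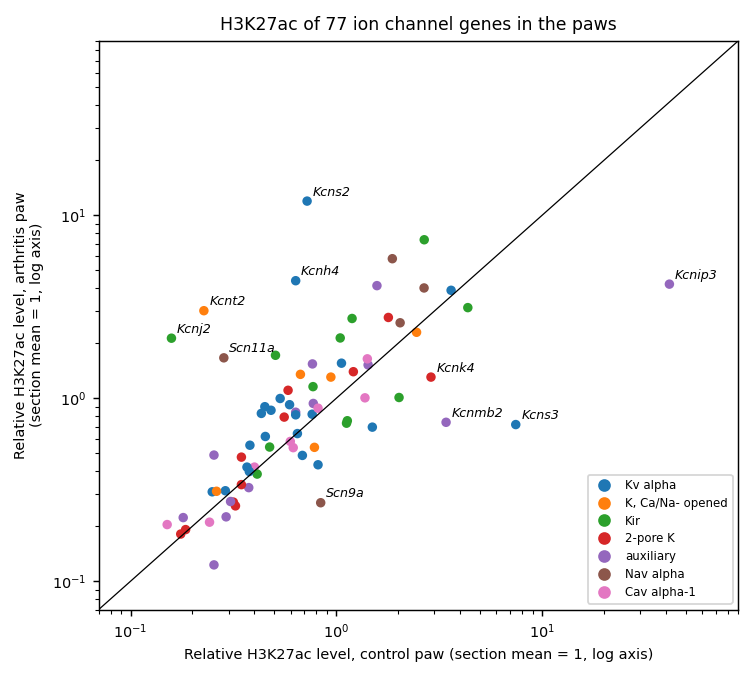
H3K27ac level in the arthritis paw (y axis) against the control paw (x axis), as reads over the mean of all genes compared (both axes logarithmic), for 77 channel genes coloured by family, with the line of equal levels. The 5 highest and 5 lowest ratios are named; Kcns2 lies farthest above the line at 3.77 and Kcnip3 and Kcns3 farthest below at -3.38 and -3.31.

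The control paw was also set against embryo H3K27ac, which compares adult limb tissue, fixed and decalcified, with a frozen whole embryo. Of 111 members, 13 were 2-fold higher in the paw (background 10.2%) and 18 lower (background 11.0%), with a median of -0.10. In both column sets 8 were higher (6.69%) and 13 lower (8.52%). Kcnip3 lay at 5.16 or more, with 35 embryo reads, Scn10a at 3.61 (3.06 to 4.68), Kcns3 at 2.58, with 38 embryo reads, and Kcnmb2 at 1.51. Kcnf1, a silent subunit, held 245 and 5 reads at 1.49, and -1.07 with the deposited values. The list of sensory neuron members held Scn9a, Scn10a, Scn11a, Kcng4, Kcns3 and Kcnk18, and left out Kcns1, named above for sensory neurons. Of the 6 listed, 5 were higher (background 10.2%), with a median of 1.17. They include Scn9a at 1.00, on the 2-fold line. Scn11a at 1.26 rests on 2 embryo reads and Kcnk18 at 1.08 on 1, and the median lies between these 2 genes. Scn3a at 1.08 and Cacna1h at 1.13 were also higher. Among the lowest ratios were those of Cacna1f (-3.53), Kcnv2 (-2.94), Cacna1s (-2.60) and Kcnh2 (-2.58), the genes named above for their embryo H3K27ac reads.

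**Figure D5:**
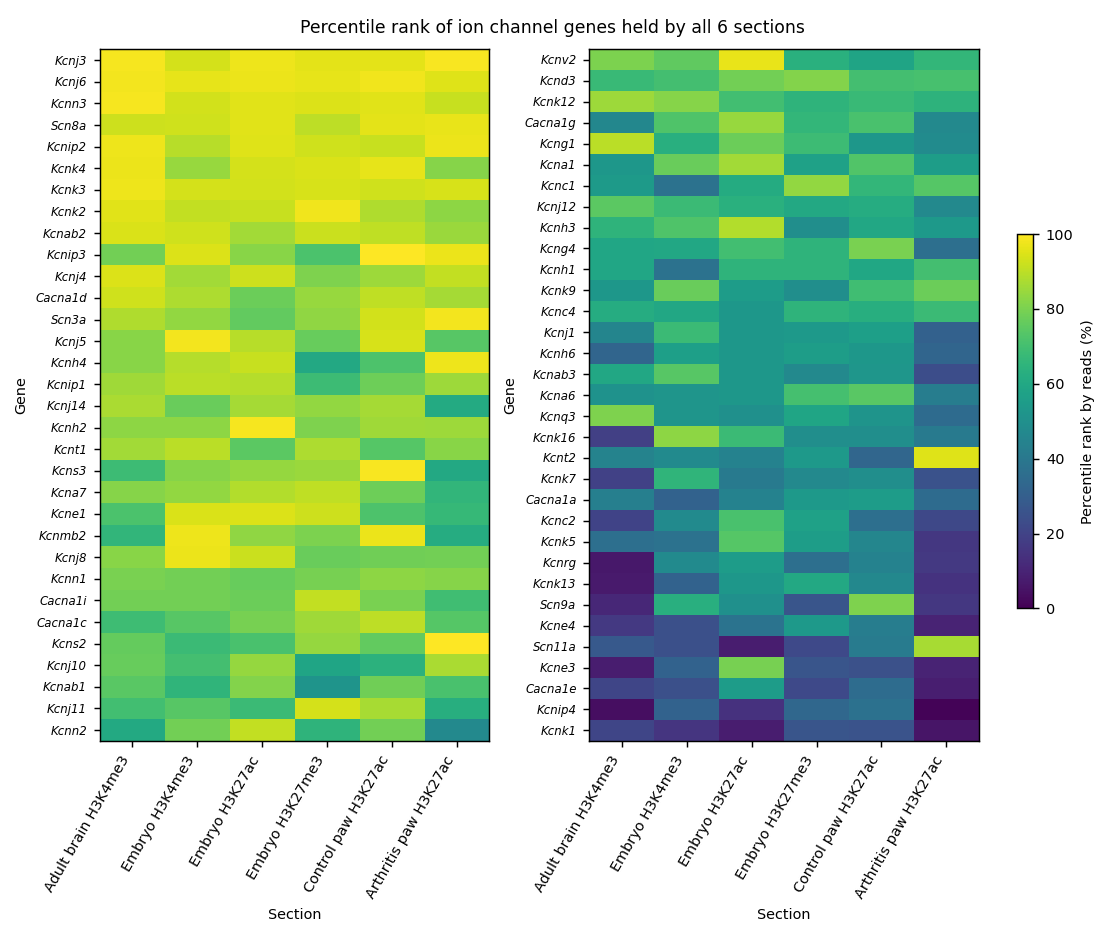
Percentile rank by reads (colour, 0 to 100) of 65 of the 68 channel genes held by all 6 sections (rows, ordered by median rank over 2 panels; columns are sections). Kcnj3, Kcnj6, Kcnn3 and Kcnk3 are at 90 or above in all columns, and single departures such as Kcnt2 in the arthritis paw (94.9, against 33.1 in the control paw) stand out from their rows.

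Over all 6 sections, the ranking of channel genes was kept in part. The 68 members held by all 6 had a median gap of 29.2 percentage points between their highest and lowest rank, and for 40 of them (58.8%) it was over 25 points. Over all genes the median gap was 35.2 points, with 70.2% over 25. The widest gaps were those of Scn11a (78.7), Kcne3 (71.2), Scn9a (69.3) and Kcnk16 (64.2). Over the 15 pairs of sections, Spearman's rho across channel genes was 0.59 to 0.83, and across all genes 0.61 to 0.76; this describes genes within shared libraries. Of the 68 members, 16 ranked 75 or above by reads in each (background 15.4%). A rank of 90 or above in each was held by 4 (background 4.13%), namely Kcnj3, Kcnj6, Kcnk3 and Kcnn3. Other members of the former set are Cacna1d, Kcnab2, Kcnh2, Kcnip2, Kcnj4, Kcnj8, Kcnk2, Kcnk4, Kcnn1, Scn3a and Scn8a.

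Within the sections, the members' summed reads were compared over 3 zones of the array, from the inner to the outer spots. Their share of all reads ranged from 0.811% to 0.844% in the even and 0.820% to 0.846% in the odd columns of the brain, and from 0.897% to 0.914% and 0.898% to 0.908% in the control paw, and from 0.976% to 1.02% over both column sets of the arthritis paw, with no order from inner to outer that both column sets shared. Under embryo H3K4me3 it ranged from 0.537% to 0.617%, also without a shared order. Under embryo H3K27ac it fell from the inner to the outer zone in both column sets, at 0.774%, 0.728% and 0.688% in the even and 0.785%, 0.764% and 0.719% in the odd columns. Under embryo H3K27me3 it went from 0.562% to 0.518% and from 0.549% to 0.509%. The 95% counting intervals of inner and outer zones overlapped in each of these 4 cases. The even columns of the brain were deeper, with a median of 2654 reads per spot against 589. Some members' reads followed those of a close neighbour over the spots and may be counted for both, which was not tested. Kcnab3 and Trappc1 held 16 reads each under embryo H3K4me3 (r = 1.00). The correlation was lower for Kcnk4 with Gpr137 in the control paw (r = 0.57) and for Kcnh4 with Hcrt under embryo H3K4me3 (r = 0.52).

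A list of related genes outside the symbol rule, called partner genes here, held auxiliary beta subunits, HCN channels, ankyrins, Rest and others. By reads, its median rank was above that of the members in all 6 sections, and ranks per kb of gene span are not given for it. In the brain 27 of the partner genes had a median rank of 79.6. Of these, 0 were 2-fold higher and 4 lower than under embryo H3K4me3 (7.23% and 11.7% over all genes), with a median ratio of -0.35. For H3K27me3 against H3K4me3 3 of 33 were higher and 7 lower (13.3% and 11.1%), and for H3K27me3 against H3K27ac 3 and 2 of 35 (12.3% and 11.6%). For H3K27ac against H3K4me3 they were 3 and 5 of 33 (12.9% and 12.3%). For the arthritis against the control paw they were 3 and 0 of 27 (9.84% and 9.04%), and for the control paw against embryo H3K27ac 2 and 2 of 35 (10.2% and 11.0%). Hcn2, a pacemaker channel, held 129 reads in the brain (rank 54.1) and 281 under embryo H3K4me3 (99.1), although the brain section held more reads in all. Rest held 274 reads in the brain (rank 86.0) and 29 under embryo H3K4me3 (87.2), or 1.53 and 1.30 times the section mean. Its reads were 1554 in the arthritis paw (95.5) and 356 in the control paw (81.6).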

How the data were processed

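Histone mark reads were measured in 6 sections, 1 per group. Per the labels' protocols, protein A-Tn5 on barcoded arrays cut antibody-bound chromatin. The submitters' processing notes name Bowtie2, featureCounts, MACS2 and the builds mm9 and hg19; settings and the counting window are not stated in the sources. As deposited, the table gives quantile-normalised signal for each gene and spot. Ties were broken by gene order, so reads were recovered from the tied ranks, at 92.9% to 95.4% of the listed total. Recovered sums equalled the listed ones at 37.4% of ranks in the brain and 50.8% to 51.6% in the embryo sections. In the paws they did so at 98.8% to 99.1% of ranks, and the cause of this difference was not tested. Sums with over 10% of reads outside the exact zone are lower bounds. The decoding was tested on simulated data.

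Relative levels, ranks and log2 ratios (pseudocount 0.1, minus the median of all genes) were computed in Python 3.11.15 with pandas 2.3.3 and scipy 1.17.1. The 95% intervals are exact Poisson and conditional binomial and cover counting error only, since reads carry no stated molecular identifiers. Named genes were every sodium and calcium channel, the 10 highest and lowest ratios for brain against embryo and 5 elsewhere, with 20 or more reads in 1 section, the 5 highest levels per section, and the promoters of the 3 highest and lowest brain ranks; other names were chosen after their values were seen. Some genes that this rule names are not reported here. The members and lists were chosen with earlier results of these data known. Scn2a, written in the list of partner genes, was counted as a member only.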

Additional observations from a re-analysis of the deposited data

How the results depend on the processing

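No paired analysis was possible because each group has 1 section. Over 9 alternatives, the median rank stayed at 58.6 to 66.2 in the brain and 55.8 to 63.2 under embryo H3K4me3. Reads per kb of gene span were not among these alternatives. On that scale the medians were 37.7 and 43.2, below the middle. Over 10 alternatives, counts of members past 2-fold moved by over 1.5 times as follows. The share of all genes past it under the same setting is given beside each. With a pseudocount of 1, 4 members (14 with 0.1; all genes 5.28%) for brain against embryo, 12 (27; 8.36%) for H3K27me3 against H3K4me3, 10 (28; 8.06%) for H3K27me3 against H3K27ac, 10 (23; 8.01%) for H3K27ac against H3K4me3, 10 (17; 8.08%) for the paws and 10 (31; 7.50%) for the control paw against embryo H3K27ac were past it. With even columns the 3 embryo counts in that order were 42, 44 and 37 (all genes 35.6%, 31.5% and 35.3%), and with odd columns the last was 40 (35.5%), where single columns hold fewer reads. With genes held by all 6 sections they were 16, 15 and 11 (24.7%, 23.5% and 24.7%), and 15 (21.01%) for the control paw against embryo H3K27ac, over 68 members. With genes of lower level left out the latter count was 18 of 64 (31.4%), and with the share of spots the paws had 9 of 77 (11.9%). Of 1528 values of named genes, 1405 stayed within counting error, 121 moved and 2 changed sign with the deposited values: Kcng1 for brain against embryo (-0.76) and Kcnf1 for the control paw against embryo H3K27ac (-1.07); the cause was not tested. In the embryo the median member held 11 to 20 reads, which limits ratios of single genes there.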
